A study of Mus musculus with 10 samples.

Results

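The genes described here encode the pore-forming and auxiliary subunits of potassium, voltage-gated sodium and voltage-gated calcium channels in cultured mouse neural stem cells. They were picked by symbol, as all genes named Kcn with letters and a number, Scn with a number and an a, b or a1 ending, or Cacna, Cacnb or Cacng. Such a symbol was found for 131 of 21101 genes measured. The 86 that reached at least 1 TPM (a share of all transcripts, scaled by gene length) in at least 2 of the 10 libraries are reported, of 15660 genes in all that passed the same threshold. The level was therefore used to choose them, and levels are given as a description with no test.

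All 10 libraries came from neural stem cells that lack p53 and were transduced with IDH1(R132H), a mutant of isocitrate dehydrogenase 1 found in gliomas, so the control lines carry both changes too. The 2 control lines (Control NSC#1 and Control NSC#2) keep Atrx, a chromatin remodelling gene, and 3 lines (mA16d#4, mA19d#4 and mA19d#7) have it deleted. Each line gave 1 library while proliferating in EGF plus bFGF (20 ng/ml) and 1 after 8 days of differentiation in B27 with these growth factors withdrawn. The media are called proliferation and differentiation medium. Values below are always listed in this order of lines, control before Atrx-deleted. Each group is therefore 2 or 3 lines. A p-value rests on the spread between lines within a group, pooled over all 4 groups and partly shared across genes. The main fit treated the libraries of a line as independent. The sample codes of the 4 control libraries share 1 prefix and those of the 6 Atrx-deleted libraries another, so genotype and whatever that prefix stands for cannot be told apart. Atrx itself was at 127 to 163 TPM across the 4 control libraries and at 42.8 to 74.0 TPM across the 6 Atrx-deleted libraries, with no overlap.

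Ion channels let selected ions cross the cell membrane. Potassium channels set the resting voltage and end electrical impulses, sodium channels start impulses, and calcium channels turn a voltage change into calcium entry. In the brain, neurons use all of these classes to fire, while astrocytes and their precursors rely mainly on inward rectifying and tandem-pore leak potassium channels, which keep the membrane near the potassium potential and clear potassium from the extracellular space. Auxiliary subunits bring the pores to the membrane and tune their gating, and several Cacng proteins instead accompany AMPA-type glutamate receptors.

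Of the 86 reported genes, 48 reached 1 TPM in all 10 libraries, a share of 55.8%, against 78.4% of all tested genes. Their mean level over the 10 libraries had a median of 5.96 TPM, against 26.3 TPM for all tested genes. A mean of at least 10 TPM was seen for 29, of which 4 had a mean of at least 100 TPM, 49 lay between 1 and 10 TPM, and 8 were under 1 TPM. The remaining 45 symbols were not reported: 15 reached 1 TPM in a single library and 30 in none. Just inside the threshold lay Cacna1e and Cacng1, each at 1.20 TPM in its second-highest library. Kcnj14 lay just outside at 0.990 TPM. No gene reached 1 TPM in the libraries of a single group alone, and 1, Scn2b, did so in a single genotype.

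**Figure D1:**
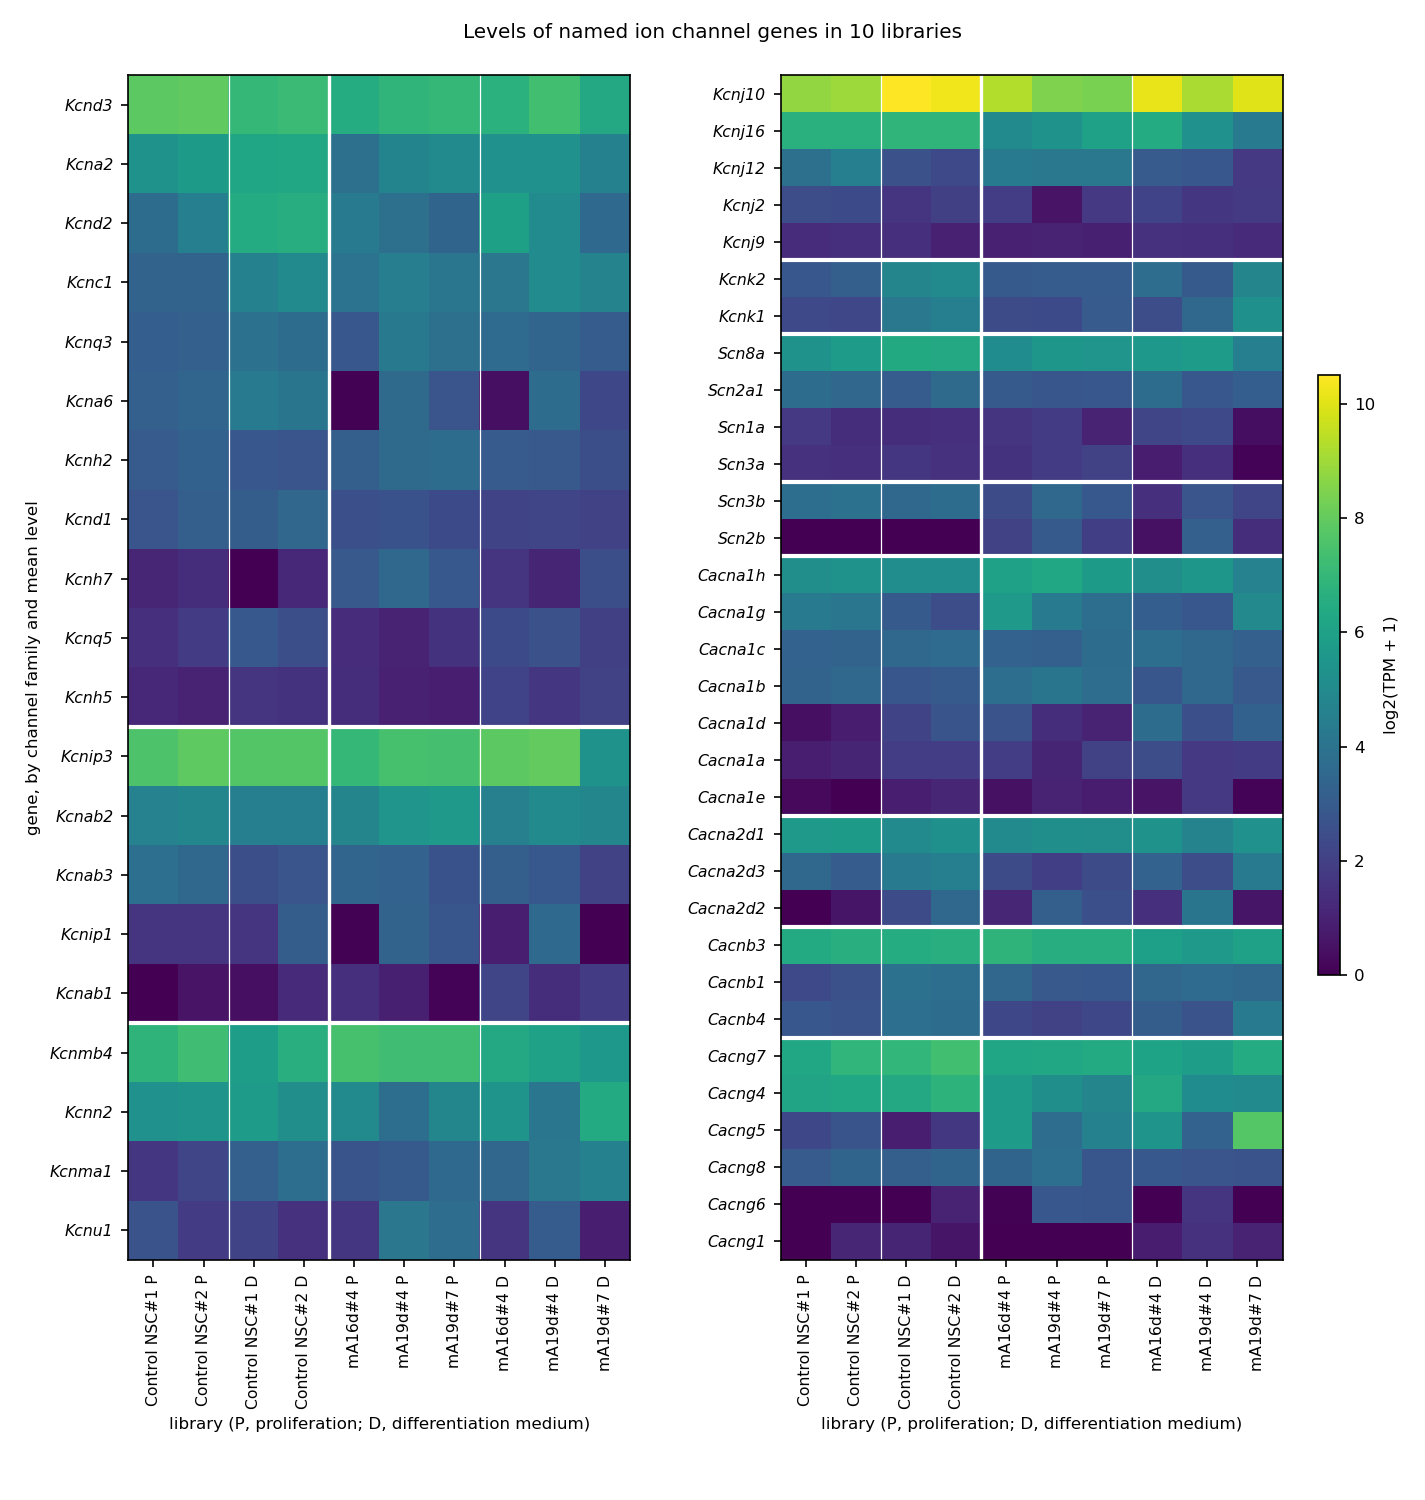
Level of most reported channel genes named in the text, without Cacnb2 and Kcnh8 (rows, by channel family), in the 10 libraries (columns, by group), coloured by log2(TPM + 1). Kcnj10 is the brightest row in every library, and the Kcna6 row is dark in both libraries of mA16d#4.

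The 86 genes summed to between 1727 and 3042 TPM per library, and Kcnj10 alone held between 19.3% and 47.7% of that sum. Without Kcnj10 the sum ranged from 1249 to 1785 TPM. All 10 columns of the table hold the same sorted values, so the sum over all genes is 997524 TPM in each library and depth is unknown. The library of mA19d#7 in differentiation medium stood apart. It had the lowest level of the 10 libraries for 20 of the 86 genes (23.3%, against 14.8% of all tested genes), and Gfap, an astrocyte filament gene, was at 1411 TPM there against at most 79.5 TPM in the other 9 libraries. Because these are bulk libraries, fewer cells of a type and less RNA per cell cannot be told apart.

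The neural stem cell label was checked on 8 marker genes, and all 8 passed the threshold. Their summed level was 9902 to 13360.0 TPM over the 10 libraries. Fabp7, at 2628 to 11021 TPM, and Vim, at 1232 to 7897 TPM, made up most of it. Prom1 was at 0.937 to 3.11 TPM in the control libraries. Nes went from 642 and 532 TPM in proliferation medium to 245 and 284 TPM in differentiation medium in control lines. Other cell types were read from marker lists as well. The 8 astrocyte markers summed to 1647 to 1977 TPM in control lines in proliferation medium and 3774 to 4014 TPM in differentiation medium, and to 2104 to 2388 TPM, then 2894 to 5828 TPM in Atrx-deleted lines. Both control lines were higher in differentiation medium for Slc1a3 (620 and 688, then 1541 and 1518 TPM), Aldoc, Gja1 and Slc1a2. They were lower for S100b (285 and 339, then 210 and 175 TPM) and Aldh1l1 (13.2 and 20.4, then 5.09 and 14.2 TPM). Gfap and Aqp4 were higher in Control NSC#1 and lower in Control NSC#2. The 8 cycling-cell markers summed to 613 to 1025 TPM, then 95.9 to 110.2 TPM in control lines and to 671 to 1025 TPM, then 304 to 696 TPM in Atrx-deleted lines. All 10 oligodendrocyte-lineage markers passed, with sums of 4696 to 4977, 4081 to 4431, 3488 to 4095 and 2061 to 5236 TPM in the same order. Olig1 and Olig2 made up most of these sums, while Mbp stayed at or under 2.10 TPM and Mog at or under 3.98 TPM. Of 10 neuron markers 9 passed, with sums of 718 to 740.3, 853 to 886, 789 to 982 and 445 to 1239.7 TPM. Most of that sum came from the cytoskeletal genes Map2, at 358 to 903 TPM, and Tubb3, at 50.1 to 372 TPM. Elavl4 reached 29.7 TPM and Rbfox3 12.7 TPM, while Stmn2 stayed at or under 0.324 TPM and Snap25, which serves vesicle release, at or under 3.38 TPM. In the lists for microglia and macrophages, endothelial and mural cells, and muscle, 2 of 7, 4 of 8 and 2 of 6 genes in the table passed. In control lines the astrocyte, neuron and neural stem cell sums were higher in differentiation medium, and the cycling and oligodendrocyte-lineage sums lower, without overlap. Among neuron markers, Elavl3 went from 0.932 and 2.43 to 13.4 and 20.1 TPM in control lines. Dcx and Rbfox3 were also higher in both control lines, while Syt1 and Syp were lower in both. Several channel genes described next differed between media as well, and the part of cell content in their values was not tested.

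**Figure D2:**
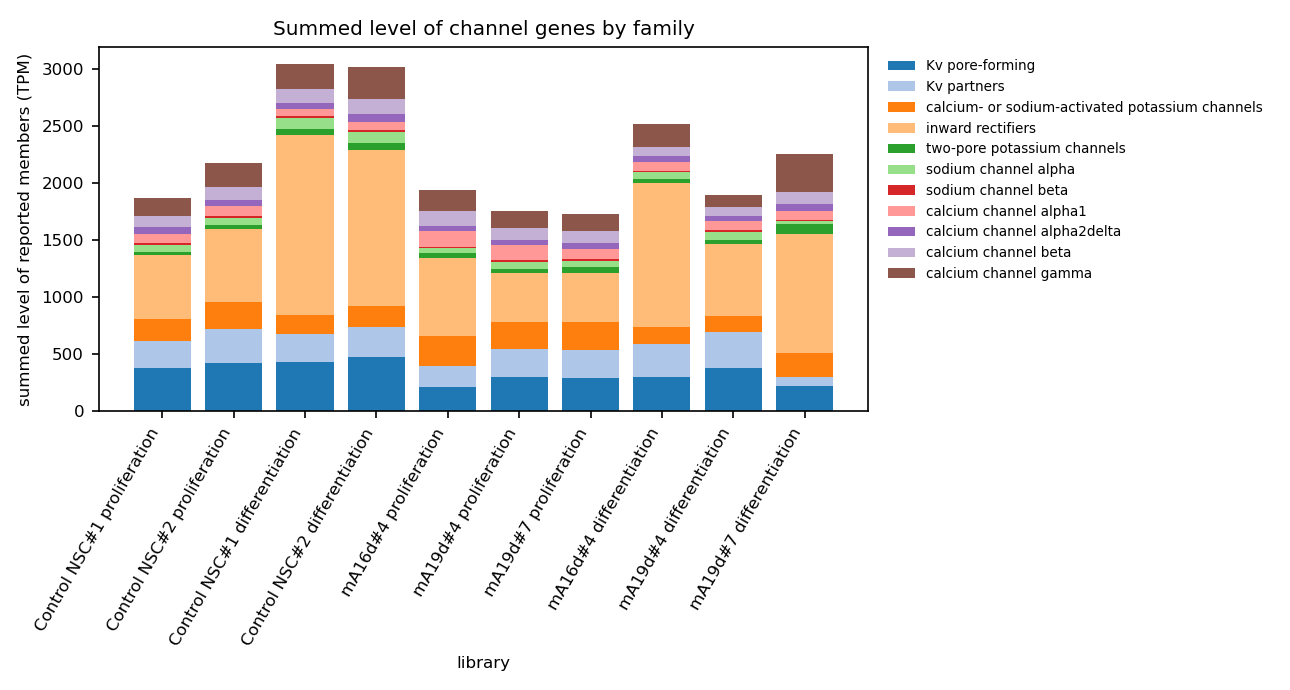
Summed level of the reported channel genes (TPM, vertical) in each of the 10 libraries, with 1 stacked segment per channel family. The inward rectifiers, which hold Kcnj10, are the tallest segment in each of the 10 bars, and whole bars reach from 1727 to 3042 TPM.

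Inward rectifiers pass potassium more easily into the cell than out. Of 15 symbols in this family, 9 were reported. Kcnj10, the main inward rectifier of astrocytes and oligodendrocytes, had the highest mean of all reported channel genes, 767 TPM. Control lines had 444 and 499.7 TPM in proliferation medium, and Atrx-deleted lines 626, 358 and 334 TPM. In differentiation medium control lines had 1451 and 1232 TPM and Atrx-deleted lines 1146, 569.7 and 1008 TPM. All 5 lines were higher in differentiation medium, and the control lines lay above all Atrx-deleted lines there. Kcnj16 encodes a subunit that assembles with Kcnj10. It was at 101 and 102 TPM in control and 32.0, 40.4 and 63.0 TPM in Atrx-deleted lines in proliferation medium, and at 115 and 116 TPM in control and 87.5, 38.2 and 18.5 TPM in Atrx-deleted lines in differentiation medium. Each of the 6 Atrx-deleted libraries lay below each of the 4 control libraries. Kcnj12, a strong inward rectifier, ran against Kcnj10: it went from 13.6 and 22.3 to 5.11 and 4.01 TPM in control lines and from 19.4, 17.5 and 17.5 to 7.08, 6.23 and 2.30 TPM in Atrx-deleted lines, with every differentiation library below every proliferation library. The other 6 reported members had means between 0.339 and 6.47 TPM.

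Tandem-pore channels carry leak currents and were reported for 7 of 13 symbols. Kcnk2, a mechanosensitive leak channel, was at 6.19 and 7.97 TPM in control lines in proliferation medium and 26.3 and 31.8 TPM in differentiation medium. In Atrx-deleted lines it was at 6.81, 7.37 and 7.26 TPM and then at 12.5, 6.96 and 26.4 TPM, so mA19d#7 alone came near the control level. Kcnk1 showed a like spread, from 3.97 and 3.75 to 17.6 and 21.9 TPM in control lines and from 4.46, 4.12 and 7.15 to 4.51, 10.9 and 38.1 TPM in Atrx-deleted lines, where mA19d#7 was the highest library and mA16d#4 was nearly level. Kcnk1 was chosen after its values were seen, as were Kcna2, Kcna6 and Cacna2d2 further on.

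Voltage-gated potassium pores were the largest family, with 25 of 40 symbols reported. Kcnd3 and Kcnd2 encode pores of the fast inactivating A-type current. Kcnd3 was at 232 and 245 TPM in control lines in proliferation medium and 125 and 143 TPM in differentiation medium. In Atrx-deleted lines it was at 88.5, 115 and 126 TPM and at 105, 158 and 80.7 TPM, so that the control lines in proliferation medium lay above all other libraries. Kcnd2 went from 12.3 and 22.4 to 87.4 and 91.2 TPM in control lines and from 18.5, 13.7 and 9.57 to 61.0, 32.1 and 10.97 TPM in Atrx-deleted lines. The value was higher in differentiation medium in all 5 lines, least so in mA19d#7, and Kcnd3 and Kcnd2 differed in opposite directions in the control lines.

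Kcnc1 encodes a rapidly deactivating pore used by fast-spiking neurons. Kcnc1 was at 9.29 and 9.29 TPM in control lines and 14.9, 21.5 and 16.2 TPM in Atrx-deleted lines in proliferation medium, and at 23.4 and 30.7 TPM and 17.2, 32.3 and 24.7 TPM, respectively, in differentiation medium. Genotypes did not overlap in proliferation medium and did in differentiation medium. Kcna2 and Kcna6 encode low-threshold delayed rectifiers. Kcna2 was at 40.1 and 51.5 TPM (proliferation) and 71.5 and 75.2 TPM (differentiation) in control lines and at 13.9, 26.1 and 31.0 TPM (proliferation) and 38.6, 39.2 and 23.2 TPM (differentiation) in Atrx-deleted lines, without overlap in either medium. Kcna6 was almost lacking in 1 line: mA16d#4 was at 0.0319 TPM in proliferation medium and 0.355 TPM in differentiation medium, while the other 8 libraries ranged from 3.82 to 19.5 TPM. Kcnq3, an M-type current pore, was between 6.13 and 17.8 TPM in all libraries.

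Among the partners of these pores, 8 of 11 symbols were reported. Kcnip3, a calcium-binding protein that joins Kcnd pores, was the second highest channel gene by mean level. It was at 189 and 234 TPM (proliferation) and 205 and 207 TPM (differentiation) in control lines. In Atrx-deleted lines it was at 128, 174 and 168 TPM in proliferation medium and 229.8, 249 and 40.7 TPM in differentiation medium, and the last of these, mA19d#7, was the only library under 100 TPM. Kcnip1 overlaps Kcnmb1 on chromosome 11, and whether the counting used strand is not given in the sources used here, so its level is uncertain.

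Calcium- and sodium-activated potassium channels were reported for 8 of 12 symbols. Kcnma1 is the pore of the large-conductance BK channel and Kcnmb4 its beta subunit best known from neurons. Kcnma1 went from 2.20 and 3.60 to 8.46 and 13.1 TPM in control lines and from 5.57, 6.81 and 10.9 to 9.99, 17.5 and 23.4 TPM in Atrx-deleted lines, higher in differentiation medium in all 5 lines. Kcnmb4 went the other way in all 5 lines, from 112 and 154 to 57.7 and 94.1 TPM in control lines and from 172, 153 and 153 to 79.2, 62.9 and 48.0 TPM in Atrx-deleted lines. Pore and subunit thus had opposite signs in every line. Kcnn2, a small-conductance calcium-activated pore, was at 38.7 and 42.0 TPM (proliferation) and 55.6 and 35.6 TPM (differentiation) in control lines and at 31.9, 12.7 and 27.4 TPM (proliferation) and 42.0, 16.6 and 85.8 TPM (differentiation) in Atrx-deleted lines. Its highest library was mA19d#7 in differentiation medium, and the groups overlapped.

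Sodium channel genes were mostly low. Of 10 alpha subunits, the pores themselves, 5 were reported, and of 4 beta subunits 3. Scn8a, the main sodium channel of mature axons, was the highest: 39.6 and 53.2 TPM (proliferation) and 83.4 and 79.7 TPM (differentiation) in control lines, and 33.9, 46.4 and 43.9 TPM (proliferation) and 48.1, 53.6 and 22.2 TPM (differentiation) in Atrx-deleted lines. In differentiation medium the control lines lay above all Atrx-deleted lines. Scn2a1, a pore of axon initial segments, was between 5.97 and 12.1 TPM over the 10 libraries. Scn1a, known from inhibitory interneurons, was between 0.322 and 3.97 TPM, and Scn3a, known from embryonic brain, between 0.0846 and 3.15 TPM. The lowest library of both was mA19d#7 in differentiation medium. Scn2b, a beta subunit, was at or under 0.0131 TPM in all 4 control libraries, and at 3.11, 6.95 and 2.88 TPM in proliferation and 0.385, 8.44 and 1.59 TPM in differentiation medium in the Atrx-deleted lines. It was the only reported gene under 1 TPM in every library of 1 genotype.

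Calcium channel pores were reported for 8 of 10 symbols. Cacna1h and Cacna1g encode T-type channels, which open at low voltage. Cacna1g went from 19.3 and 16.6 to 6.79 and 4.62 TPM in control lines, and was at 49.7, 18.7 and 12.9 TPM (proliferation) and 7.75, 6.30 and 29.7 TPM (differentiation) in Atrx-deleted lines, where mA19d#7 ran against the other lines. Cacna1c and Cacna1d encode L-type channels. Cacna1c was nearly level, between 8.20 and 13.0 TPM, while Cacna1d went from 0.361 and 0.797 to 3.50 and 5.54 TPM in control lines and from 5.47, 1.61 and 1.09 to 12.1, 4.98 and 8.56 TPM in Atrx-deleted lines, higher in differentiation medium in each line. Cacna1a, the P/Q-type pore of nerve terminals, was between 0.833 and 4.65 TPM.

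Auxiliary subunits were the highest of the calcium channel genes. All 4 Cacnb genes, whose cytoplasmic proteins carry the pores to the membrane, were reported, along with 3 of 4 Cacna2d and 6 of 8 Cacng genes. Cacnb3 was at 84.4 and 95.1 TPM (proliferation) and 90.6 and 98.1 TPM (differentiation) in control lines, and went from 113, 92.9 and 91.4 to 59.8, 49.9 and 64.2 TPM in Atrx-deleted lines, lower in differentiation medium in each of these 3 lines. Cacnb1 went from 3.99 and 5.17 to 14.7 and 12.9 TPM in control lines and from 9.97, 6.67 and 6.45 to 10.2, 11.7 and 10.7 TPM in Atrx-deleted lines, with all 5 differentiation libraries above all 5 proliferation libraries. Cacna2d1, which binds gabapentin, was between 24.6 and 51.5 TPM.

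Cacng7, Cacng4 and Cacng5 encode AMPA receptor companions. Cacng7 was at 78.3 and 119 TPM (proliferation) and 123 and 157 TPM (differentiation) in control lines and at 71.0, 74.7 and 83.7 TPM (proliferation) and 66.7, 56.4 and 88.2 TPM (differentiation) in Atrx-deleted lines. Cacng4 was at 69.8 and 75.0 TPM (proliferation) and 79.7 and 111 TPM (differentiation) in control lines, and at 55.7, 36.2 and 26.2 TPM (proliferation) and 79.5, 33.0 and 31.4 TPM (differentiation) in Atrx-deleted lines, where mA16d#4 in differentiation medium came close to the lower control line. Cacng5 was at 3.90 and 5.55 TPM (proliferation) and 0.839 and 2.24 TPM (differentiation) in control lines, but at 54.3, 12.4 and 23.3 TPM (proliferation) and 42.0, 8.93 and 209.7 TPM (differentiation) in Atrx-deleted lines. All 6 Atrx-deleted libraries lay above all 4 control libraries, and the highest was mA19d#7 in differentiation medium.

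Neighbouring channel genes differed widely in level. Kcnj9 and Kcnj10 lie 11.9 kb apart on chromosome 1 (GRCm38), at means of 1.37 and 767 TPM. On chromosome 11, Cacng1, Cacng4 and Cacng5 lie in a row at means of 0.66, 59.7 and 36.3 TPM, and Kcnj16 and Kcnj2 at 71.4 and 2.73 TPM. On chromosome 7, Cacng7 was at 91.9 TPM and its neighbours Cacng8 and Cacng6 at 8.05 and 1.53 TPM. In proliferation medium the neighbours Cacng4 and Cacng5 differed in opposite directions, with all 3 Atrx-deleted lines below both control lines for Cacng4 and above them for Cacng5.

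The first test asked which channel genes changed with medium in the control lines. With limma on log2(TPM + 1), 3 of the 86 genes (3.49%) passed an adjusted p of 0.05, all higher in differentiation medium, against 4.51% of all tested genes in either direction (1.95% higher, 2.56% lower). The share of channel genes called was thus near that of the genes at large. The 3 were a potassium buffer channel, a fast potassium pore and a calcium channel beta subunit. Kcnj10 rose by 1.50 on the log2 scale (SE 0.37, limma adjusted p = 0.0493). Kcnc1 rose by 1.44 on the log2 scale (SE 0.32, limma adjusted p = 0.0337), and Cacnb1 by 1.41 on the log2 scale (SE 0.31, limma adjusted p = 0.033). In each, both control lines in differentiation medium lay above both in proliferation medium. None of the 3 passed when any 1 of the 4 control libraries was left out, with limma adjusted p from 0.103 to 0.318. Leaving out mA19d#4 or mA19d#7 in proliferation medium also ended the call of Kcnj10 (limma adjusted p = 0.0744 and 0.0651), and leaving out the latter that of Kcnc1 (0.0532). With no filter on low values Kcnj10 and Kcnc1 did not pass (0.118 and 0.0627), whereas without mA19d#7, mA19d#4 or mA16d#4 in differentiation medium 11, 7 and 5 channel genes passed. Those shares, 12.8%, 8.24% and 5.81%, stood beside 9.33%, 6.32% and 4.63% of all genes tested under the same omissions. With the line as a block, Cacnb1 no longer passed (limma adjusted p = 0.0755), while Kcnd2 and Kcnma1 did (0.0281 and 0.0476, against 0.0611 and 0.0774 without the block).

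The genes lie on 3 chromosomes of GRCm38, as annotated by GENCODE M21: Kcnj10 at chr1:172341210-172374085 (plus strand), Kcnc1 at chr7:46396497-46438704 (plus strand) and Cacnb1 at chr11:98001508-98023034 (minus strand). Their promoter sequences are shown because these are the 3 channel genes that passed the test, all in 1 direction. Each is 240 bases from RefSeq (GRCm38.p6), ends 11 bases before the RefSeq start and is written 5′ to 3′ on the gene's strand, with GGGCGG or its reverse complement CCGCCC, the GC box, in capitals. Cacnb1 has 2 RefSeq starts, and the window of the upstream one is shown. It overlaps no untranslated region annotated by GENCODE M21 but lies within the Cacnb1 span given above.
Kcnj10: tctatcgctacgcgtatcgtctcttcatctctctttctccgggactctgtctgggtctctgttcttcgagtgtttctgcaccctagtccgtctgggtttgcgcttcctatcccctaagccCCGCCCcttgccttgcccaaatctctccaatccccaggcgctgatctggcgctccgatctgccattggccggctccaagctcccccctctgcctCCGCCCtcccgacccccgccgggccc
Kcnc1: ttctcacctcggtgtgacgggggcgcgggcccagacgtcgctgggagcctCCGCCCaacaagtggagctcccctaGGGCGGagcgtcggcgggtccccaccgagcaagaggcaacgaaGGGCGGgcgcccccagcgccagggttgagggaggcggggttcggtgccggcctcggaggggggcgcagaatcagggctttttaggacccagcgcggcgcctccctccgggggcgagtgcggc
Cacnb1: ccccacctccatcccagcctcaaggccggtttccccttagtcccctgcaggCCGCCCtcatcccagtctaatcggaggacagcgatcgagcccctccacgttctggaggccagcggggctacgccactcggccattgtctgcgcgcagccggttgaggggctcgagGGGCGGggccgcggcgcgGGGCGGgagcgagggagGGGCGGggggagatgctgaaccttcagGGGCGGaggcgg
The Kcnj10 window is chr1:172340960-172341199 on the plus strand, that of Kcnc1 chr7:46396218-46396457 on the plus strand and that of Cacnb1 chr11:98022638-98022877 on the minus strand. They hold 2, 3 and 5 copies of the GC box on either strand, with GC contents of 62.5%, 73.8% and 72.1%. The median GC content was 57.5% over the 97 windows of the 64 reported channel genes with a RefSeq entry and 52.1% over all 32851 windows. At least 1 GC box was in 41.2% of channel gene windows and 31.3% of all windows. CCAAT or ATTGG was in 27.8% and 33.0%, TATAAA or TTTATA in 5.15% and 12.1%, and CAGCTG, which reads the same on both strands, in 21.6% and 12.4%. Overlapping copies were counted, and a match is only a stretch of letters in the window.

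**Figure D3:**
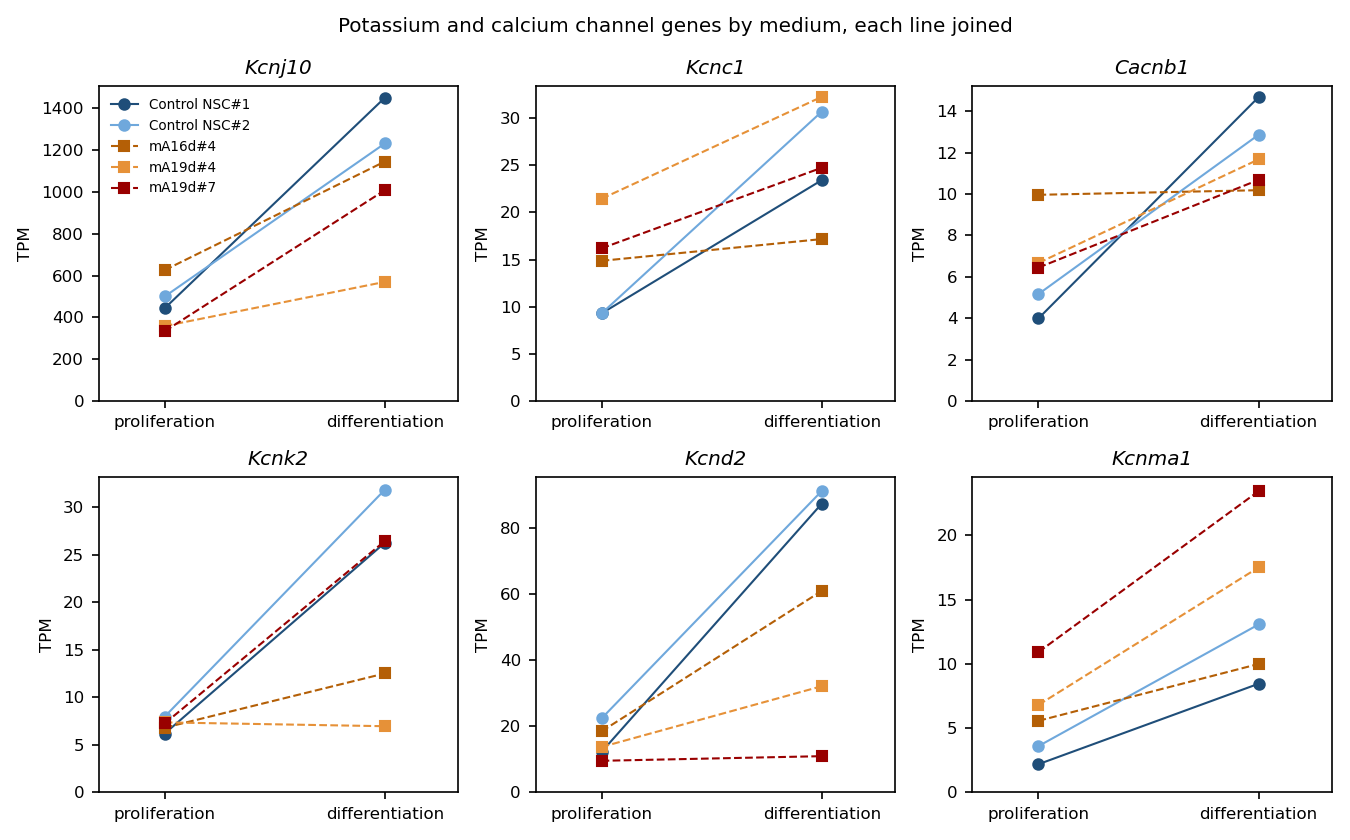
TPM (vertical, from 0) of Kcnj10, Kcnc1, Cacnb1, Kcnk2, Kcnd2 and Kcnma1 by medium, joined by line (circles, control lines; squares, Atrx-deleted lines). Both control lines are higher in differentiation medium in all 6 panels, while mA16d#4 is nearly flat for Cacnb1 and mA19d#7 for Kcnd2.

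Most channel genes did not pass in the control lines, and 18 had an unadjusted p under 0.05 (20.9%, all tested genes 19.9%). Across the 86 genes the median log2 difference in control lines was 0.16, with 47 above 0 and 39 below. All tested genes had a median of -0.01, with 49.2% above 0. Of the genes whose control groups did not overlap, 32 were higher (all tested genes 29.6%) and 26 lower (31.6%) in differentiation medium. Kcnk2 (log2 difference 1.90, SE 0.47, limma adjusted p = 0.0512), Kcnj12 (log2 difference -1.74, SE 0.44, limma adjusted p = 0.0524) and Kcnk1 (log2 difference 2.09, SE 0.70, limma adjusted p = 0.124) had large differences without passing. Cacna2d2 had the largest value (log2 difference 2.69, SE 1.02, limma adjusted p = 0.17), from 0.00391 and 0.512 to 4.42 and 10.6 TPM, and its 2 control lines lay more than 2-fold apart in differentiation medium.

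In the Atrx-deleted lines none of the 86 genes passed for medium with limma, against 0.083% of all tested genes. At an unadjusted p under 0.05 there were 21 channel genes, a share of 24.4%, against 14.8% of all tested genes. The smallest p-values belonged to Kcnmb4 (log2 difference -1.34, SE 0.23, limma adjusted p = 0.0755), Cacnb3 (log2 difference -0.76, SE 0.15, limma adjusted p = 0.0872) and Kcnj12 (log2 difference -1.73, SE 0.36, limma adjusted p = 0.0946), all lower in differentiation medium. Without mA19d#7 in differentiation medium, 4 genes passed: Cacnb3, Kcnd2, Kcnj12 and Kcnmb4 (4.65%, all genes tested then 2.24%). The median difference over the 86 genes was -0.01 (all tested genes 0.01), with 42 above 0 and 44 below (51.1% of all tested genes above 0). Groups that did not overlap numbered 8 higher (all tested genes 8.65%) and 12 lower (7.85%).

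Counting lines of both genotypes, 12 channel genes were higher in differentiation medium within each of the 5 lines (all tested genes 11.2%) and 10 were lower (10.3%). The 12 were Kcnj10, Kcnk1, Kcnma1, Kcnd2, Kcnc1, Kcnq5, Kcnh5, Kcnab1, Cacnb1, Cacnb4, Cacna1d and Cacna2d3. The 10 were Kcnmb4, Kcnj12, Kcnh2, Kcnh7, Kcnab2, Kcnab3, Kcnu1, Scn3b, Cacna1b and Cacna1h. For 3 genes (Kcnq5, Kcnh5 and Cacnb1) all 5 differentiation libraries lay above all 5 proliferation libraries, as for 3.47% of all tested genes, and for 3 (Kcnh2, Kcnmb4 and Kcnj12) below, as for 2.96%. These shares lie close to those of the genes at large.

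**Figure D4:**
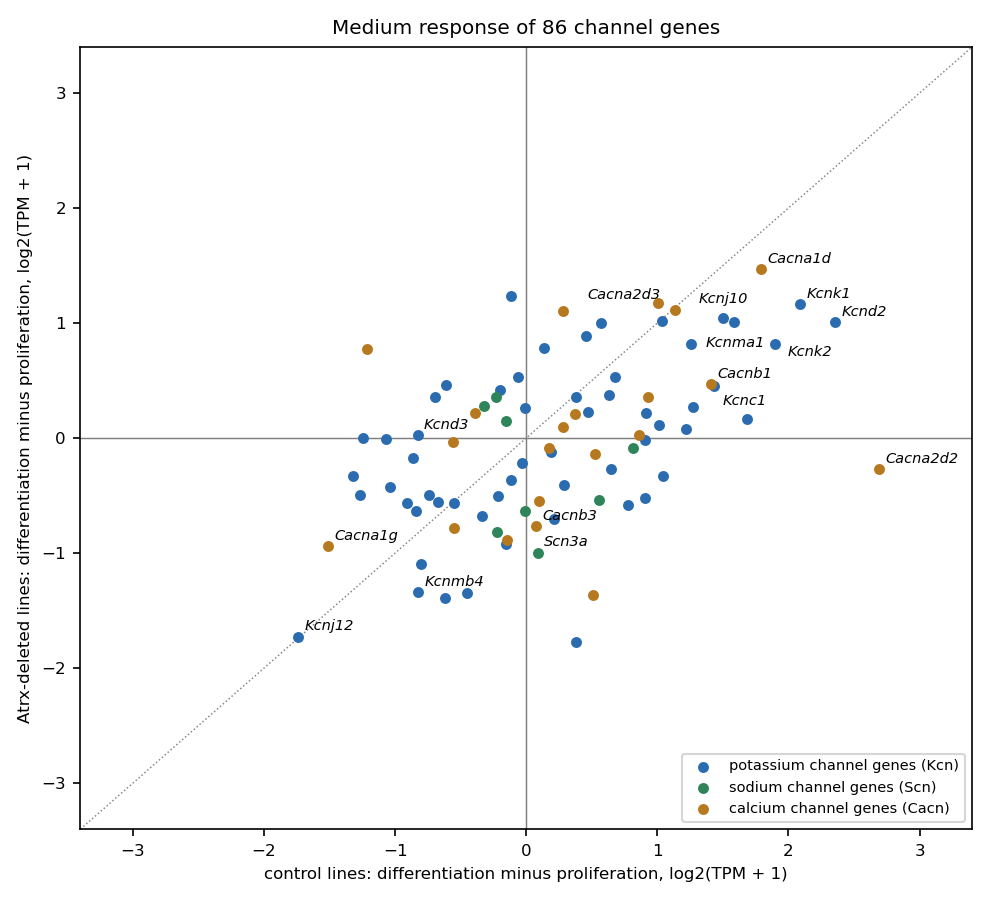
Difference between media in Atrx-deleted lines (vertical, log2 of TPM + 1) against that in control lines (horizontal) for the 86 channel genes, 1 point each, with the line of equal difference dotted. Kcnd2, Kcnk1 and Kcnj10 lie to the right and above 0 and Kcnj12 to the lower left.

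The difference of the medium responses between genotypes was tested with an interaction term. None of the 86 genes passed with limma, against 0.00639% of all tested genes (1 gene), and 7 channel genes had an unadjusted p under 0.05 (8.14%, all tested genes 7.02%). The response of the Atrx-deleted lines minus that of the control lines had a median of -0.28 on the log2 scale over the 86 genes. It was above 0 for 30 of them and below for 56. All tested genes had a median of 0.03, with 52.2% above 0. Among the smallest p-values were those of Cacnb3 (log2 difference -0.84, SE 0.24, limma adjusted p = 0.47) and Kcnc1 (log2 difference -0.99, SE 0.41, limma adjusted p = 0.669). In 7 channel genes (8.14%, all tested genes 4.36%) both control lines moved one way between media and all 3 Atrx-deleted lines the other. The larger control response of Kcnc1 was not shown to differ from that of the Atrx-deleted lines.

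Atrx deletion was then compared within each medium. In proliferation medium none of the 86 genes passed with limma, against 0.46% of all tested genes. The unadjusted p was under 0.05 for 19 of them (22.1%, all tested genes 13.7%). The nearest was Kcnd3 (log2 difference -1.13, SE 0.26, limma adjusted p = 0.0969), followed by Kcnh7 (log2 difference 1.88, SE 0.52, limma adjusted p = 0.153), a pore related to the cardiac hERG channel, and Scn2b (log2 difference 2.31, SE 0.70, limma adjusted p = 0.191). Kcnd3 passed when mA19d#4 or mA19d#7 in differentiation medium, which only inform the spread here, was left out. With each group weighted by its own spread, 3 of the 86 genes passed, Kcnd3 and Kcnh7 among them (3.49%, all tested genes 4.29%). Scn2b met the level threshold through Atrx-deleted libraries alone, so the direction of its difference was set by the choice of genes and its p-value supports nothing. Both control lines were at or above 232 TPM for Kcnd3, and the Atrx-deleted lines at or below 126 TPM. For Kcnh7 the Atrx-deleted lines were at 6.54, 10.8 and 6.38 TPM and the control lines at 1.16 and 1.59 TPM. Groups did not overlap for 20 genes with higher values in the Atrx-deleted lines (all tested genes 17.8%) and 20 with lower values (20.2%). The median difference was 0.10, with 48 above 0 and 38 below (all tested genes -0.02, with 48.1% above 0).

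In differentiation medium again none of the 86 genes passed with limma, against 2.89% of all tested genes, and 16 had an unadjusted p under 0.05 (18.6%, all tested genes 20.2%). The smallest p-values were those of Cacng7 (log2 difference -0.999, SE 0.23, limma adjusted p = 0.0515), Cacnb3 (log2 difference -0.70, SE 0.17, limma adjusted p = 0.0544) and Cacng5 (log2 difference 4.20, SE 1.02, limma adjusted p = 0.0571). Cacnb3 encodes a calcium channel beta subunit, whereas Cacng7 and Cacng5 encode AMPA receptor companions. Cacng7 and Cacnb3 had all 3 Atrx-deleted lines below both control lines, and Cacng5 all above. Without mA19d#7 in differentiation medium 6 genes passed, among them Cacna2d3, Cacnb3, Cacng5, Cacng7 and Kcnk2 (6.98%, all genes tested then 6.04%). Without mA16d#4 in differentiation medium 2 passed (2.33%, all genes tested then 2.65%), and without mA19d#4 in differentiation or mA16d#4 in proliferation medium 1 (1.18% and 1.16%, all genes tested then 2.19% and 2.67%). With line as a random block Cacng7 passed at a limma adjusted p of 0.0491. Non-overlapping groups were 10 with higher (all tested genes 18.2%) and 19 with lower values in the Atrx-deleted lines (18.1%). The median difference was -0.15, with 37 above 0 and 49 below (all tested genes 0.02, with 51.3% above 0).

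In both media at once, 2 genes (Cacng5 and Scn2b) had all 6 Atrx-deleted libraries above all 4 control libraries, a share of 2.33%, against 3.37% of all tested genes. For Scn2b the level threshold, met in that genotype alone, fixed this direction. Another 6 genes, among them Kcna2, Kcnd1, Kcnj16 and Scn3b, had all 6 below, a share of 6.98%, against 3.92% of all tested genes. None of these 8 genes passed the test in either medium. Both comparisons within a genotype and both within a medium use the same libraries, so their counts are not independent.

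**Figure D5:**
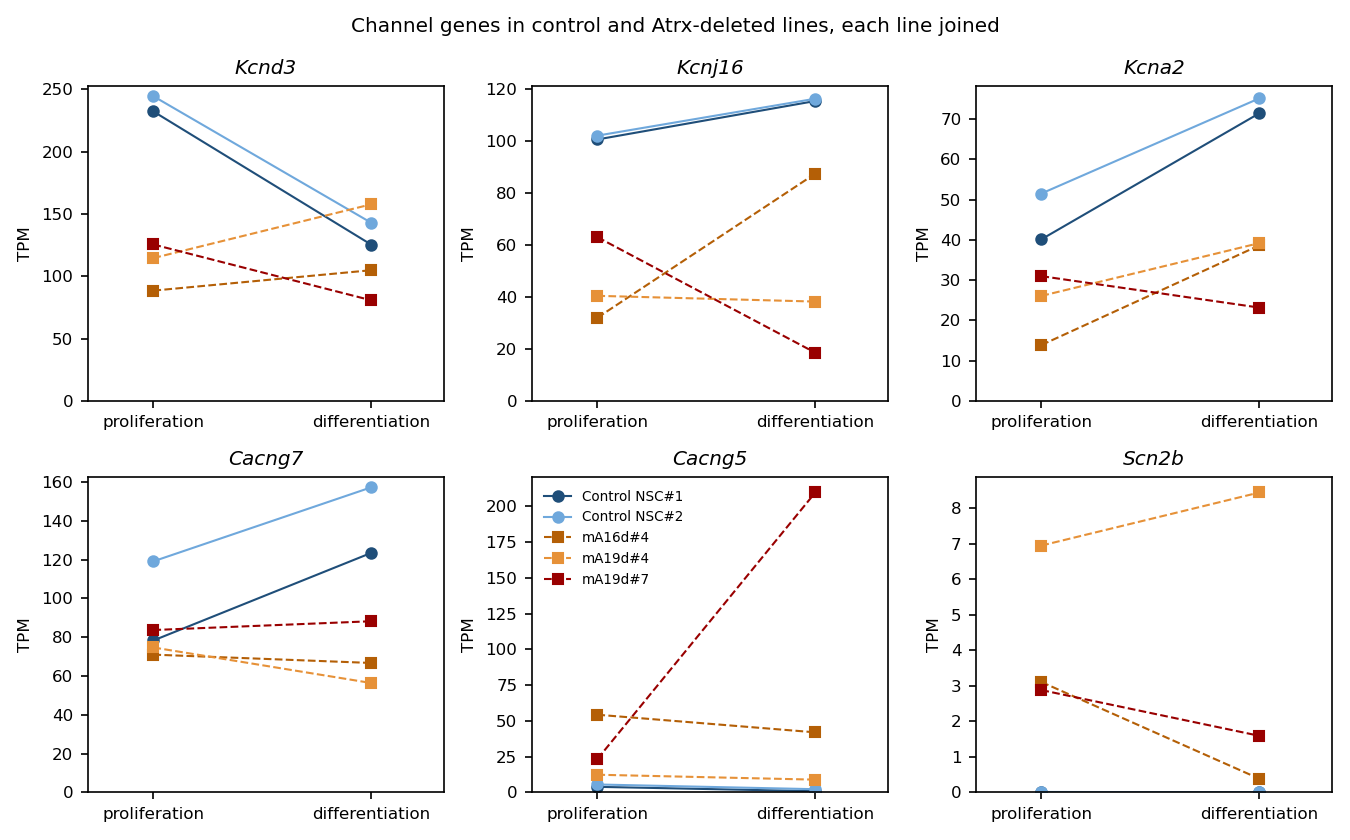
TPM (vertical, from 0) of Kcnd3, Kcnj16, Kcna2, Cacng7, Cacng5 and Scn2b in proliferation and differentiation medium, with each line's pair of libraries joined (circles, control lines; squares, Atrx-deleted lines). Cacng5 and Scn2b are higher, and Kcna2 and Kcnj16 lower, in all 6 Atrx-deleted than in all 4 control libraries, and Cacng5 in mA19d#7 lies far above the other lines in differentiation medium.

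Differences of at least 2-fold on the log2(TPM + 1) scale were seen in 26 channel genes for medium in control lines, 18 in Atrx-deleted lines, 18 for genotype in proliferation medium and 20 in differentiation medium. The shares, from 20.9% to 30.2%, stood beside 5.33% to 14.5% of all tested genes, whose median level was higher. The part of level in this was not tested.

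A list of 49 other genes that bind, anchor or accompany these channels was also read, of which 40 passed the level threshold and were tested. It was chosen with earlier results of these data known. In control lines 2 of the 40 rose with differentiation medium and none fell, against 1.95% of all tested genes called higher and 4.51% in either direction. They were Fgf12, an intracellular partner of sodium channels, from 2.42 and 3.98 to 10.7 and 14.8 TPM, by 1.72 on the log2 scale (SE 0.33, limma adjusted p = 0.0212), and Nfasc, which gathers sodium channels at the axon initial segment and node, from 5.26 and 10.3 to 113 and 98.5 TPM, by 3.66 on the log2 scale (SE 0.66, limma adjusted p = 0.0163). In differentiation medium 2 of the 40 were lower in Atrx-deleted lines, against 2.89% of all tested genes called in either direction, and counts this small say nothing particular of the list. Fgf14, a relative of Fgf12, was at 2.59 and 2.71 TPM in control and 0.00391, 0.00536 and 0.0133 TPM in Atrx-deleted lines (log2 difference -1.86, SE 0.40, limma adjusted p = 0.0401). It met the level threshold through control libraries alone, with all 6 Atrx-deleted libraries at or under 0.0219 TPM, so the direction of this call was set by the threshold. Clcn2, a chloride channel of glia, was at 28.7 and 21.9 TPM in control and 9.63, 11.4 and 10.4 TPM in Atrx-deleted lines (log2 difference -1.19, SE 0.24, limma adjusted p = 0.0333). In the other 3 comparisons none of the 40 passed.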

How the data were processed

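RNA-seq of 10 libraries was analysed (2 control and 3 Atrx-deleted lines, each in 2 media). The deposited table holds log2 TPM values for 21101 genes. Reads were aligned with STAR to mm10, per the submitters' processing notes, with no version. The quantifier and annotation are not stated there. All 10 columns hold the same sorted values with a floor of -8 (1213 genes per library), so the deposited log2 values were quantile-normalised, and read depth is unknown. Quantile normalisation would remove a shift shared by all genes.

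Values were returned to TPM and tested as log2(TPM + 1) in limma 3.58.1 (R 4.3.3), with 1 fit of 4 groups and a mean-variance trend, over the 15660 genes at 1 TPM or more in at least 2 libraries. Such fold changes understate low genes. Benjamini-Hochberg adjustment ran over all tested genes in each of 5 comparisons (genotype in each medium, medium in each genotype, and the interaction), with a threshold of 0.05. The script was tested on simulated data. Some of the genes under these rules are not reported here. The members and lists were chosen with earlier results of these data known. Values in every library are given for called genes, the 8 highest by mean, a list of 20 genes, and the 3 smallest p-values where none passed.

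The same line gave both media. Residuals of its pair of libraries correlated at 0.159 (mA16d#4), 0.404 (mA19d#4), -0.194 (mA19d#7) and 0.0624 (both control lines) over 15660 genes. With 2 control lines per group their residuals mirror each other, so both lines share 1 value by construction. The fit with line as a block was an alternative. Others were pseudocounts, filters, the trend, weights, the groups fitted and each library left out. Gene positions come from GENCODE M21 and promoters from RefSeq.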

Additional observations from a re-analysis of the deposited data

Results flagged for a closer look

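For 7 of the 86 channel genes (8.14%) both control lines moved one way between media and all 3 Atrx-deleted lines the other way, as did 4.36% of all tested genes (682). The difference itself was tested with limma's interaction term, and none passed. The response of the Atrx-deleted lines minus that of the control lines, on the log2 scale, was 0.62 for Cacnb2 (adjusted p = 0.842), -1.08 for Scn3a (0.790) and -0.64 for Cacng8 (0.833). It was 1.07 for Kcnj2 (0.794), -0.84 for Cacnb3 (0.470), -1.43 for Kcnh8 (0.768) and -0.70 for Kcnd1 (0.796). Cacnb2 and Kcnj2 were higher, and the other 5 lower, in the Atrx-deleted response. Cacnb3, at a mean above 80 TPM, was the best expressed of them, and Kcnh8 was under 3 TPM in each library.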

How the results depend on the processing

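In each comparison the genes called, or the 3 of smallest p-value where none passed, were followed through the alternatives. Other named genes were not followed through all of them. No followed comparison changed direction. Of 291 values recomputed, 248 kept their side of the threshold. Where no share of all tested genes stands beside a count, that count says nothing particular of channel genes. For medium in control lines the count of channel genes called, 3, became 6 with a filter of 5 TPM and 13 with the compared groups fitted alone. It became 21 with a weight per group (24.4%, all tested genes 19.1%) and 5 with line as a fixed block (5.81%, all tested genes 3.11%). With each Atrx-deleted library left out it was 1 to 11 (1.18% to 12.8%, all genes tested then 3.18% to 9.33%). For genotype in proliferation medium the count, 0, became 3 with a weight per group and 0 to 1 with libraries left out. For genotype in differentiation medium the count, 0, became 1 with a pseudocount of 0.25 TPM, 2 on the deposited log2 values and 1 with no filter. It was 1 with a filter of 5 TPM and 2 without the trend. With a weight per group or with line as a random block it was 1 (1.16%, all tested genes 3.04% and 2.92%). With each Atrx-deleted library left out it was 0 to 6 (0% to 6.98%, all genes tested then 1.68% to 6.04%). For medium in Atrx-deleted lines it was 0 to 4 with libraries left out, and for the interaction 0 throughout. Alternatives chosen after seeing the data left out both mA19d#7 libraries: 1 gene then passed for genotype in proliferation medium, 3 in differentiation medium and 9 for medium in control lines, and with the line block as well 17 in control and 4 in Atrx-deleted lines. Over all tested genes the count for medium in control lines went from 706 to 2984 with weights, 2080 with the compared groups alone, 1328 without mA19d#7, 1848 without it under the line block and 6 to 1450 with each library left out. For genotype in proliferation medium it went from 72 to 672 with weights, 39 on the deposited log2 values, 37 with no filter, 229 without mA19d#7 and 0 to 250 with each library left out. For genotype in differentiation medium it went from 452 to 2 with the compared groups alone, 832 without mA19d#7 and 11 to 939 with each library left out. For medium in Atrx-deleted lines it went from 13 to between 0 and 348, and for the interaction from 1 to between 0 and 30, over all alternatives. The pairing by line changed no other call than those given beside the results. Where leaving out a library left 1 control line in a group, it was assumed to vary like the other groups. The cause of these changes was not tested. With read depth unknown, no interval could be set on the low genes.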
